A study of Homo sapiens with 6 samples.

Results

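The mitochondrial ribosomal proteins are the proteins of the ribosome that works inside mitochondria. Their genes were taken as all probes whose symbol in the platform annotation is MRPL or MRPS, a number and at most 1 letter from A to C. The rule used names only and gave 76 genes with 110 probes, of 20046 named genes and 48107 probes on the array. Of these probes, 106 were detected on at least 3 of 6 arrays and were kept. Every one of the 76 genes had a kept probe and was detected on all 6 arrays, so none entered through 1 group alone, and 11220 genes were tested in all. MRPL27 is not analysed here. The samples were total RNA of A375, an established human melanoma line with an activating mutation in the kinase BRAF. A375 cells were treated for 24 h with 3 µM vemurafenib, an inhibitor of mutant BRAF (n = 3 samples), or with the solvent DMSO (n = 3 samples). The labels call the samples of each group unnumbered, 1 and 2, and do not say whether these came from separate cultures. The p-values therefore cover the spread among these samples only, and that spread may be technical.

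Mitochondria keep a small genome of their own, and the messages translated from it encode subunits of the respiratory chain and of ATP synthase. The ribosome that reads them is built from rRNA made in the mitochondrion and from proteins that are all encoded in the nucleus, made in the cytosol and imported. Its small subunit holds the messenger and decodes it, and its large subunit forms the peptide bonds and guides the new chain out through a tunnel to the inner membrane. Many of its proteins have counterparts in bacterial ribosomes, and others are found in mitochondria only. In melanoma, block of BRAF is known to raise oxidative metabolism through the coactivator PGC-1α in part of the lines.

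Each sample was hybridised to 1 array. The n of 3 thus counts arrays, and the labels do not give the number of separate cultures. Median signals were 91.0 to 94.5 intensity units against an inferred background of 85.0 to 88.3, and 18370 to 20044 probes per array were detected (38.2% to 41.7%). In the melanocyte lineage list, 3 of 9 markers were kept (SOX10, MITF and S100A1), with summed log2 signals of 22.6 to 24.5 in vemurafenib samples and 21.7 to 23.0 in DMSO samples, and 3 with a probe, S100B, TYR and GPR143, were detected on no array. Of 5 fibroblast markers, 3 were kept (DCN, LUM and COL1A1) and 0 were undetected on every array, and their summed log2 signal was 16.1 to 18.4 in vemurafenib samples and 13.8 to 14.6 in DMSO samples. This sum moved with the groups, and it does not show which of the 3 genes moved. Its part in the results below was not tested. Sums over different numbers of markers cannot be compared between cell types. KRT14 was the 1 of 4 keratinocyte markers kept, at 4.57 to 7.02 in vemurafenib samples and 4.32 to 5.47 in DMSO samples, and KRT5, KRT1 and DSG3 were detected on no array. The 2 of 5 leukocyte markers kept, CD14 and LYZ, summed to 9.24 to 10.9 in vemurafenib samples and 9.97 to 10.8 in DMSO samples, and PTPRC and CD3E were detected on no array. Of 4 endothelial markers 0 were kept, and CDH5 and KDR were detected on no array.

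Most mitochondrial ribosomal protein genes changed little after 24 h of vemurafenib, and the balance of the small changes was downward. With a Benjamini-Hochberg adjusted p under 0.05 in limma, 5 of the 76 fell (MRPL17, MRPS34, MRPS2, MRPS30 and MRPS17), 2 rose (MRPS14 and MRPL53) and 69 did not pass. That is 9.21% of the members called, against 16% of all genes tested, of which 7.93% fell and 8.07% rose. That gap depended on the processing: with the deposited log2 values, no background correction or an offset of 50, 17.1% of the members were called, against 17.4%, 17.5% and 17.9% of all genes. The change of normalised log2 signal was below 0 for 49 members (64.5%, against 45.9% of all genes) and above 0 for 27. The median was -0.11, with quartiles of -0.37 and 0.09, where all genes tested had a median of 0.05. Sizes were modest. The median absolute log2 change was 0.24 for the members and 0.35 for all genes, and 1 member, MRPL17, moved by 2-fold or more (1.32%, against 11.3% of all genes). For 64 of the 76 (84.2%), the 95% interval of the change lay within 2-fold in either direction, which held for 63.0% of all genes. The median SE was 0.17 for the members and 0.21 for all genes. Sizes and intervals were not set against genes of the same brightness, and the part of brightness and precision in them was not tested. Levels in bulk RNA are relative to the other genes of the sample, and fewer cells of a type and less RNA per cell cannot be told apart.

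**Figure D1:**
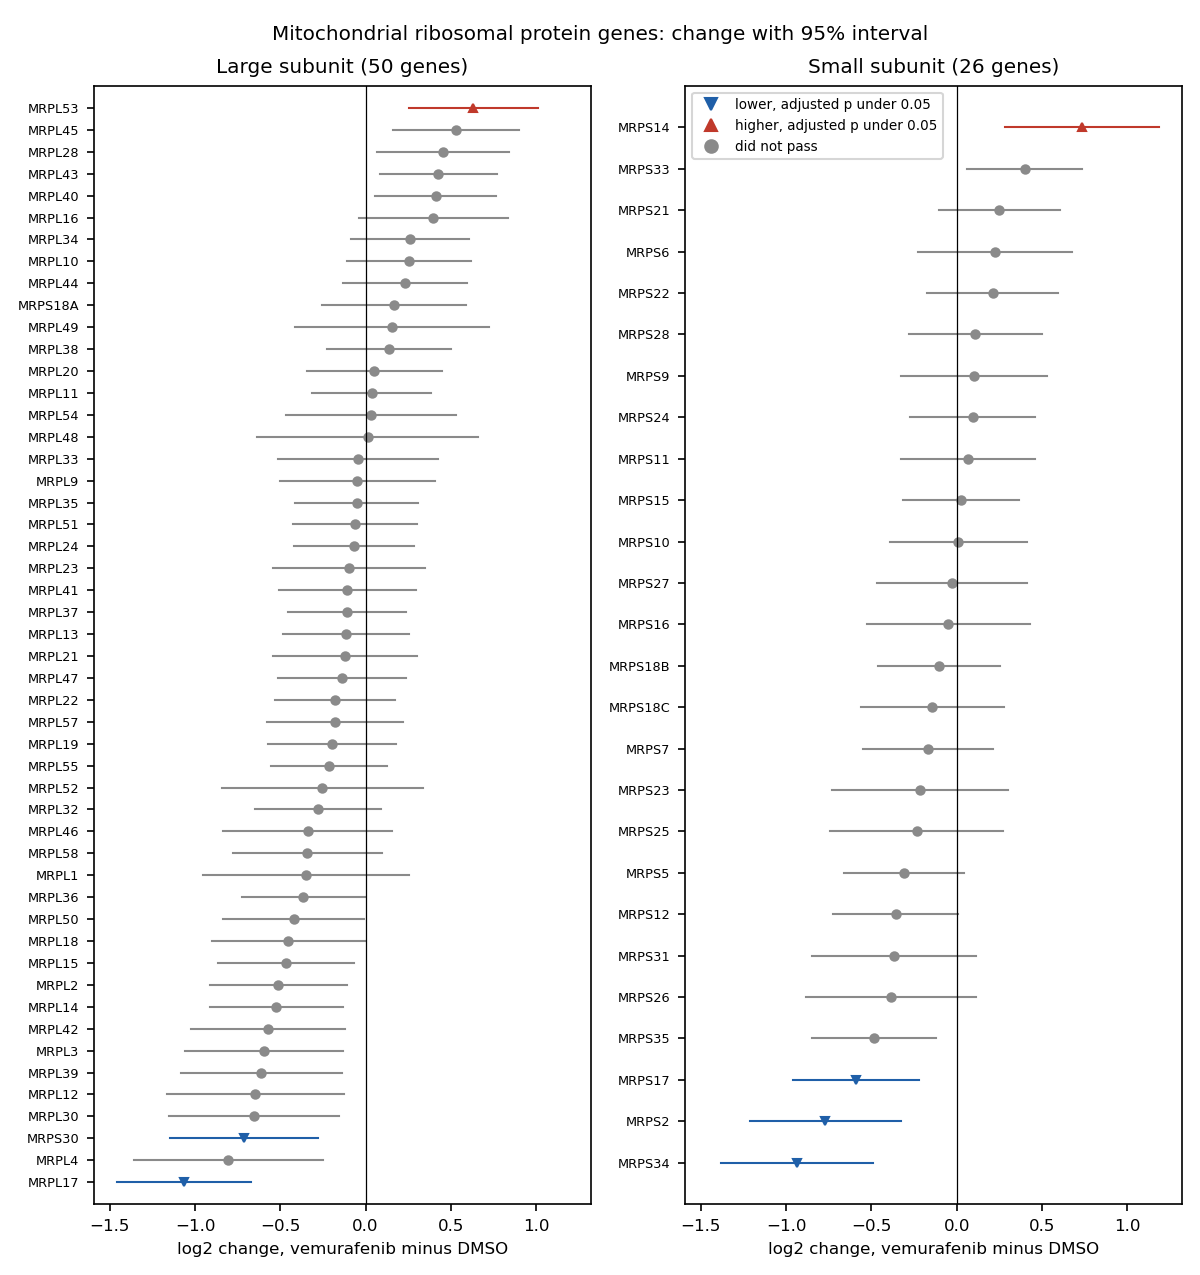
Log2 change, vemurafenib minus DMSO (horizontal axis), for the 50 large subunit genes (left) and the 26 small subunit genes (right), highest at the top, with 95% intervals of the limma fit as lines. Blue downward triangles are the 5 genes that fell and red upward triangles the 2 that rose, and most of the grey intervals of the other genes span 0.

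The calls rested on few samples. With the unnumbered and 1 samples of each group averaged, in case they are repeats, 0 members passed, and 26 of all genes did (0.232%). With the sample number as a block, 11 members fell and 3 rose (18.4%), against 29.8% of all genes called in that fit. All 7 genes above were among the members called. The labels state no pairing, and the unnumbered and 1 samples were not told apart, so their pairs rest on the sample numbers alone. Without the unnumbered vemurafenib sample, and likewise without vemurafenib sample 1, 0 members passed in either direction, while 2.72% and 3.51% of all genes did. Without a DMSO sample, 1 fell without the unnumbered sample, 1 fell and 1 rose without sample 1, and 2 fell without sample 2, against 3.65%, 5.42% and 10.3% of all genes. Without vemurafenib sample 2, 13 fell and 2 rose (19.7%), against 23.8% of all genes. With each array centred on its median, MRPS2, MRPS17, MRPS30 and MRPL53 did not pass, with adjusted p-values of 0.0508 to 0.0663 in limma. With no filter on dim probes the same 4 genes and MRPS14 did not pass, at 0.0525 to 0.0797, and MRPL17 and MRPS34 did.

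MRPL17, a large subunit protein at the exit of the peptide tunnel with a bacterial counterpart, fell most. Its log2 signal was 9.68, 9.61 and 9.94 in the unnumbered sample, sample 1 and sample 2 with vemurafenib, against 10.95, 10.82 and 10.65 in the same order with DMSO. The groups did not overlap, and the highest vemurafenib value lay well below the lowest DMSO value. The change was -1.07 ± 0.17 (SE), or 2.09-fold lower, with an adjusted p of 0.0109 in limma. Leaving out 1 sample at a time kept the call in 3 of 6 fits, and it was lost without either unnumbered sample or without vemurafenib sample 1, with adjusted p-values up to 0.0566.

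MRPS30 carries a small subunit name, but structures place it in the large subunit, where it is grouped here with the central protuberance, and it is found in mitochondria only. It gave 9.89, 9.81 and 10.16 with vemurafenib and 10.67, 10.44 and 10.90 with DMSO. Sample 2 was the highest of its group on both sides, and the groups did not overlap. The change was -0.72 ± 0.19, or 1.64-fold lower, with an adjusted p of 0.0428 in limma. The call held in 1 of the 6 fits that leave out a sample, with adjusted p-values up to 0.146.

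Of the small subunit proteins, MRPS34 fell most. It is found in mitochondria only and is needed for a stable small subunit. Its log2 signal was 7.81, 7.96 and 7.71 with vemurafenib and 8.44, 8.99 and 8.88 with DMSO. The vemurafenib samples lay close together below all DMSO samples, and the unnumbered DMSO sample was the lowest of its group. The change was -0.94 ± 0.19, or 1.92-fold lower, with an adjusted p of 0.0222 in limma, and the call held in 3 of 6 fits without a sample, with adjusted p-values up to 0.0885.

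MRPS2 is the counterpart of bacterial S2, which sits near the exit of the messenger channel. It gave 8.02, 7.84 and 8.39 with vemurafenib and 8.72, 8.85 and 9.0 with DMSO. The groups did not overlap, and vemurafenib sample 2 came nearest to the DMSO samples. The change was -0.77 ± 0.19, or 1.71-fold lower (limma adjusted p = 0.0364). MRPS17, the counterpart of bacterial S17, which binds the small subunit rRNA, gave 10.31, 10.53 and 10.64 with vemurafenib and 11.09, 11.02 and 11.14 with DMSO. The 3 DMSO values were close together, and all lay above the vemurafenib values. Its change was -0.59 ± 0.16 (limma adjusted p = 0.0466). Each of these calls held in 1 of 6 fits without a sample, with adjusted p-values up to 0.130 for MRPS2 and 0.164 for MRPS17.

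Both genes that rose stand against the direction of most called members. MRPL53, a mitochondrial protein at the base of the stalk that recruits translation factors, gave 10.53, 10.32 and 10.44 with vemurafenib and 9.81, 9.96 and 9.62 with DMSO. The groups did not overlap, and the unnumbered vemurafenib sample was the highest. The change was 0.63 ± 0.16, or 1.55-fold higher, with an adjusted p of 0.0414 in limma. It held in 0 of 6 fits without a sample, where adjusted p-values ran from 0.0527 to 0.146.

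MRPS14, the counterpart of bacterial S14 in the head of the small subunit, was a dim probe. It gave 6.45, 6.35 and 6.29 with vemurafenib and 5.34, 5.96 and 5.58 with DMSO. All vemurafenib values lay above the DMSO values, and DMSO sample 1 was the highest of its group. The change was 0.74 ± 0.20, or 1.67-fold higher, with an adjusted p of 0.0437 in limma, and it held in 2 of 6 fits without a sample, with adjusted p-values up to 0.150. The change was 0.34 with no background correction and 0.35 in the deposited log2 values, and passed in neither.

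**Figure D2:**
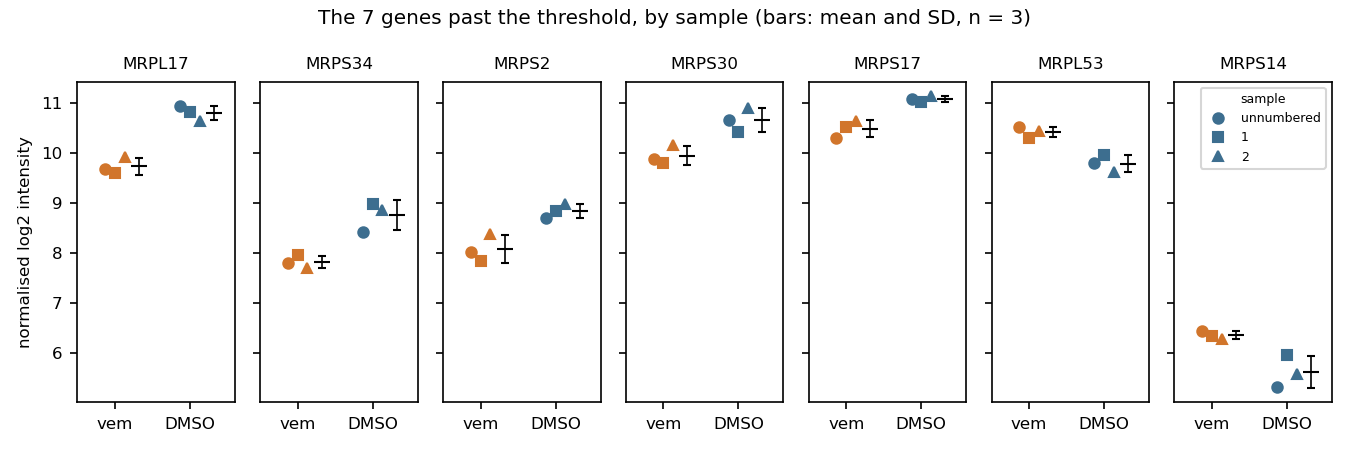
Normalised log2 intensity (vertical axis) of the 7 called genes, 1 panel each, in the vemurafenib samples (orange) and the DMSO samples (blue), with circles for unnumbered samples, squares for samples 1, triangles for samples 2, and bars for the mean and SD (n = 3). In no panel do the 3 vemurafenib points overlap with the 3 DMSO points.

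The promoters of 5 called genes are shown because each holds, within 120 bases, at least 1 of 5 short motifs searched for, all of factors known to act on genes for mitochondrial proteins. MRPS17 and MRPS14 held none there. The windows run from 100 bases before the transcription start to base 20 from it, on the strand of the gene, and come from RefSeq on GRCh38.p14. Capitals mark matches on either strand. MRPL17 (chr11:6683321-6683440, minus strand) shows the NRF1 motif in its long form GCATGCGC and its core GCATGC, which lies within the long form and reads the same on both strands. The capitals of MRPS34 (chr16:1773115-1773234, minus strand) and of MRPL53 (chr2:74472661-74472780, minus strand) are the ETS motif CCGGAAG or its reverse complement CTTCCGG. In MRPS2 (chr9:135499865-135499984, plus strand, one of its windows) they are the E-box CACGTG, and in MRPS30 (chr5:44808847-44808966, plus strand) the YY1 motif AAGATGG.
MRPL17: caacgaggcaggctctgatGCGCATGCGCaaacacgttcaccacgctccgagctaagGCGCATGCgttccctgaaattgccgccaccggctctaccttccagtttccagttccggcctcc
MRPS34: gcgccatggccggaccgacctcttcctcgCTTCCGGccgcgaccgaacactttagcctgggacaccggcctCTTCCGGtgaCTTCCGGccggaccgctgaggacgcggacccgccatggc
MRPS2: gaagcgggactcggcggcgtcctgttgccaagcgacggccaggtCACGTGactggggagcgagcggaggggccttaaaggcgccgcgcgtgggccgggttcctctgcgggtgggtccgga
MRPS30: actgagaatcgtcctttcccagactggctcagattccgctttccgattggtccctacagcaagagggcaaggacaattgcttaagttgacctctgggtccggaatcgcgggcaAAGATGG
MRPL53: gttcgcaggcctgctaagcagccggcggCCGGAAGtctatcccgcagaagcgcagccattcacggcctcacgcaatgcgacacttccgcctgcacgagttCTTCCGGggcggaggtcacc

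The ETS motif, bound by GABP among other factors, and the YY1 motif were common in the promoter windows of these genes. The table held 84 promoter windows of 68 members, each 250 bases before to 50 bases after a start, and 8 members had no entry. CCGGAAG on either strand was in 32 of 84 windows (38.1%), belonging to 29 genes, against 12.8% of 22198 windows of protein-coding genes and 10.3% of all 35116 windows. AAGATGG was in 27 windows (32.1%) of 24 genes, against 6.04% of coding and 5.84% of all windows. Many of its matches lay after the transcription start, such as those of MRPS30 (bases 14 to 20) and MRPL50 (bases 24 to 30). Others lay before the start, such as that of MRPL4 (bases -100 to -94). The other motifs were nearer to the share of all promoters. GCATGC was in 10.7% of member windows and 7.49% of coding windows, GCATGCGC in 7.14% and 3.74%, and CACGTG, the E-box that MYC binds, in 10.7% and 8.34%. Windows of 1 gene overlap, so these shares count related sequences.

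**Figure D3:**
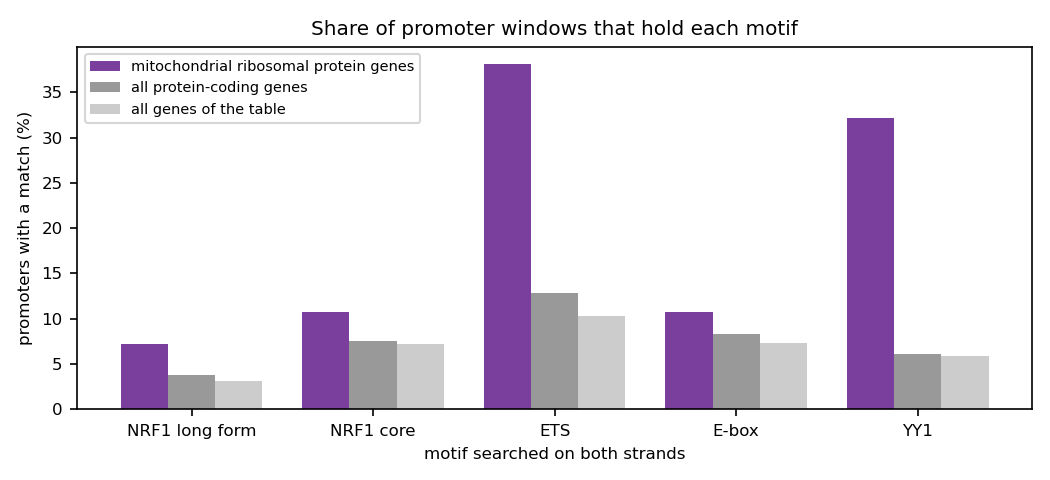
Share of promoter windows that hold each motif on either strand, in percent, for the 84 windows of mitochondrial ribosomal protein genes (purple), the windows of all protein-coding genes (grey) and all windows of the table (light grey). The bars stand apart for the ETS motif (38.1% against 12.8%) and the YY1 motif (32.1% against 6.04%).

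Changes of the genes with and without each motif were set side by side, with no test. The median log2 change was -0.05 over the genes with the ETS motif and -0.18 over those without it. For the YY1 motif it was -0.12 with and -0.13 without, and for the NRF1 core -0.14 with and -0.11 without. For the long form of the NRF1 motif, held by 6 genes, it was -0.22 with and -0.09 without, and for the E-box -0.14 with and -0.11 without. Of the 5 genes that fell, 1 each had the ETS motif, the YY1 motif, the NRF1 core and the E-box within its windows, and 1 of the 2 genes that rose had the ETS motif. A match describes the letters of these windows only.

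Structures place 50 of the measured proteins in the large subunit, MRPS30 and MRPS18A included, and 26 in the small subunit. In the large subunit 2 genes fell, 1 rose and 47 did not pass (6% called, against 16% of all genes), with a median change of -0.12. In the small subunit 3 fell, 1 rose and 22 did not pass (15.4% called), with a median of -0.08. Both subunits thus lay slightly below 0, and the difference between them was not tested. The 29 large subunit members with a bacterial counterpart had a median of -0.18, and 23 of them had a change below 0 (79.3%, against 45.9% of all genes). The other 21 large subunit members, grouped here as found in mitochondria only, had a median of -0.06. They include MRPS18A, although it is related to bacterial S18. In the small subunit the order was the other way, with 0.01 over 17 members with a bacterial counterpart and -0.23 over 9 found in mitochondria only.

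The 4 proteins near the peptidyl transferase centre, where the peptide bond is made, had the lowest median of the groups described, at -0.55. None passed in limma, 3 of 4 had an unadjusted p under 0.05, and the same 3 lay wholly below DMSO, where 35.3% and 18% of all genes did. MRPL4, the counterpart of a bacterial protein that reaches into the peptide tunnel, gave 7.36, 7.05 and 7.94 with vemurafenib and 8.20, 8.18 and 8.40 with DMSO. Vemurafenib sample 2 was the nearest to the DMSO samples. The change was -0.81 ± 0.24 with an adjusted p of 0.0605 in limma, and with the sample number as a block the adjusted p was 0.0192. MRPL3 gave 10.79, 10.86 and 11.36 with vemurafenib and 11.51, 11.51 and 11.77 with DMSO, a change of -0.60, and MRPL2 had a change of -0.51. In both, all vemurafenib values lay below the DMSO values. MRPL16 had a change of 0.40, with overlapping groups. With MRPL10, MRPL12, MRPL30, MRPL39, MRPL42, MRPL44, MRPL45, MRPL54 and MRPS33, these last 3 genes were chosen to be named after their values were seen.

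In the stalk, which recruits translation factors, MRPL53 was the only called gene of 5 (20%, against 16% of all genes). The median was 0.04. In groups this small 1 call sets the share, here and in the groups below. MRPL12, the stalk protein that contacts those factors, gave 8.91, 8.86 and 9.48 with vemurafenib and 9.50, 9.70 and 9.99 with DMSO. Its vemurafenib sample 2 was just under the lowest DMSO value, and its change of -0.65 ± 0.22 did not pass in limma. MRPL10 and MRPL54 had changes of 0.25 and 0.03. MRPL53 thus had the highest change of the large subunit, and the stalk held changes of both signs.

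Of 8 genes around the exit of the peptide tunnel, MRPL17 fell (12.5%, against 7.93% of all genes), and the median was -0.12. MRPL45, which ties the ribosome to the inner membrane, gave 11.30, 11.15 and 10.96 with vemurafenib and 10.54, 10.67 and 10.60 with DMSO. The groups did not overlap, and the change was 0.53 ± 0.16 with an adjusted p of 0.0621 in limma. MRPL39, by contrast, had a change of -0.61, and MRPL44, a protein related to an RNA-cutting enzyme, one of 0.23. In the central protuberance, MRPS30 was the 1 of 9 that fell (11.1%, against 7.93% of all genes), and the median was -0.05. The fit with the sample number as a block added MRPL3, MRPL4, MRPL12, MRPL30, MRPL39 and MRPL42 to the genes that fell and MRPL45 to those that rose. That fit called 18.4% of the members and 29.8% of all genes, and none of these calls stood with the unnumbered and 1 samples averaged.

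In the small subunit, the 8 proteins of the decoding centre and the messenger channel had a median of -0.16. Of these MRPS2 fell (12.5%, against 7.93% of all genes). MRPS12, the counterpart of the bacterial protein at the decoding site, is one of the 3 members named for the highest DMSO signal. It gave 11.64, 11.51 and 11.71 with vemurafenib and 11.81, 12.09 and 12.03 with DMSO. The groups did not overlap, and the change of -0.36 ± 0.16 did not pass in limma. MRPL51 and MRPL33, the other two, had changes of -0.06 and -0.05 with overlapping groups. The 3 smallest changes were those of MRPS10 (0.01), MRPL48 (0.01) and MRPS15 (0.02). MRPS15 held between 10.50 and 10.59 with vemurafenib and between 10.47 and 10.61 with DMSO.

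The mitochondrial ribosome has 3 proteins related to bacterial S18, which occupy different places. MRPS18A, in the large subunit, gave 8.40, 8.35 and 8.78 with vemurafenib and 8.18, 8.36 and 8.49 with DMSO, a change of 0.17 ± 0.18. MRPS18B had a change of -0.10 and MRPS18C one of -0.14. None of the 3 passed in limma, and in each the groups overlapped.

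The samples numbered 2 ran high in both groups. Among the 76 members, vemurafenib sample 2 lay above both other vemurafenib samples for 52 and below both for 15, by a median of 0.22 over their mean. DMSO sample 2 lay above both other DMSO samples for 52 and below both for 17, by a median of 0.17. Set against the DMSO mean of each gene, the median member was at -0.22, -0.20 and -0.04 in the unnumbered sample, sample 1 and sample 2 with vemurafenib, and at -0.05, -0.02 and 0.12 with DMSO. Taken within the sample numbers, the median differences were closer to each other, at -0.12, -0.15 and -0.12. Of the 76, 36 were lower in all 3 pairs (47.4%, against 28.1% of all genes), 15 were higher in all 3 (19.7%, against 34.2%) and 25 were mixed. These pairs follow the sample numbers, which the labels do not call pairs.

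**Figure D4:**
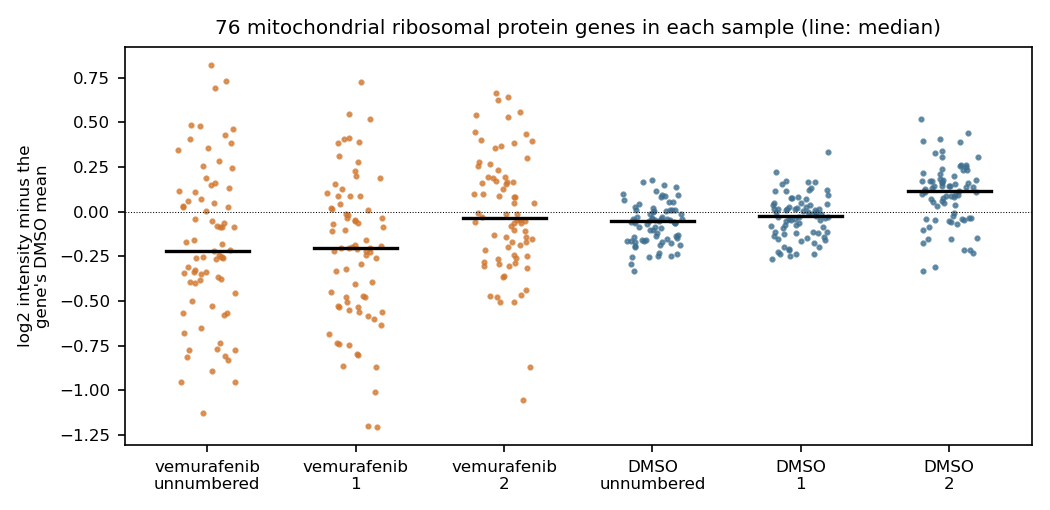
Log2 signal of every member minus its own DMSO mean, by sample, vemurafenib samples left of DMSO samples, with the median of the 76 genes as a black line. The medians are -0.22, -0.20 and -0.04 with vemurafenib and -0.05, -0.02 and 0.12 with DMSO, and sample 2 is the highest of each group.

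Without regard to pairs, all 3 vemurafenib values lay below all 3 DMSO values for 22 members (28.9%, against 18% of all genes) and above them for 11 (14.5%, against 21.8%), and 43 overlapped. Without vemurafenib sample 2, 39 members (51.3%) lay below, against 26.4% of all genes. An exact permutation test of a single gene with 3 against 3 samples cannot go under p = 0.1, two-sided, so it can call none of them. An unadjusted p under 0.05 in limma was reached by 25 members, 18 lower and 7 higher, and by 3960 of the 11220 genes. Across the 76 genes, which share the same 6 arrays, the change and the mean log2 signal had r = 0.07.

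Several members were measured by more than 1 probe. Of 24 members with 2 or more kept probes, 6 had probes with changes of opposite sign (MRPL11, MRPL20, MRPL35, MRPL43, MRPS11 and MRPS27), and the median gap between the highest and lowest probe of a gene was 0.22. MRPL11 had the largest gap, from -0.62 to 0.04, and MRPL20 spanned -0.51 to 0.05. The call differed between probes of MRPL18 and MRPL4. For MRPL18 the brighter probe had a change of -0.45 and did not pass, and the other fell by 0.84. For MRPL4 the brighter probe had a change of -0.81 and did not pass, and the other fell by 0.67. MRPS12 had 4 kept probes, all with changes below 0, from -0.54 to -0.22, and MRPS33 had 0.40 and 0.82. Over all 106 kept probes, 7 fell and 2 rose.

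Genes that build, serve or regulate the mitochondrial ribosome were counted in 6 further lists. Of 24 measured genes for assembly and rRNA modification, 3 fell, 1 rose and 20 did not pass (16.7% called, against 16% of all genes), with a median change of -0.20. TFB1M, which methylates the small subunit rRNA, gave 7.96, 8.12 and 7.94 with vemurafenib and 10.02, 9.80 and 9.05 with DMSO. The groups lay far apart, and DMSO sample 2 was the lowest of its group. Its change was -1.62 ± 0.26, with an adjusted p of 0.0109 in limma, and the call was lost without the unnumbered vemurafenib sample (adjusted p = 0.0560).

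RBFA, which helps to mature the small subunit, gave 6.54, 6.63 and 6.66 with vemurafenib and 7.63, 7.54 and 7.35 with DMSO. Its groups did not overlap, and it fell by 0.90 log2 units (limma adjusted p = 0.0139). MTERF3, which acts in mitochondrial transcription and large subunit assembly, fell by 0.59 (limma adjusted p = 0.0495). YBEY, an RNA-cutting enzyme for the small subunit, was the one that rose. Its values were 8.72, 8.54 and 8.12 with vemurafenib and 7.40, 7.83 and 7.32 with DMSO, a change of 0.95 ± 0.22 (limma adjusted p = 0.0309). Without a sample, RBFA and YBEY each kept the call in 2 of 6 fits and MTERF3 in 1.

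Of 16 translation factors, 1 rose and 15 did not pass (6.25% called, against 16% of all genes), with a median of -0.0021. MTIF3, an initiation factor, gave 9.47, 9.32 and 9.24 with vemurafenib and 8.70, 8.63 and 8.63 with DMSO, a change of 0.69 ± 0.15 (limma adjusted p = 0.0260). Of 12 genes for mitochondrial transcription and RNA processing, TFAM fell and 11 did not pass (8.33% called, against 16% of all genes), with a median of -0.43. TFAM, which packs mitochondrial DNA and starts its transcription, gave 8.13, 8.34 and 8.77 with vemurafenib and 9.14, 9.08 and 9.74 with DMSO. Its groups did not overlap, and the change was -0.90 ± 0.25 (limma adjusted p = 0.0477). MTIF3 and TFAM each kept the call in 1 of 6 fits without a sample.

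None of 16 mitochondrial aminoacyl-tRNA synthetases passed in limma, where 16% of all genes did. An unadjusted p under 0.05 in limma was reached by 4 of them and by 35.3% of all genes, and the median of the 16 was 0.06. The members named for their signal, IARS2 and SARS2, had changes of 0.15 and 0.06. Of the ribosome's own proteins under other symbols, 3 were measured and 0 passed in limma or had an unadjusted p under 0.05. DAP3, a small subunit protein that binds GTP, had a change of -0.07, CHCHD1 one of -0.10 and GADD45GIP1 one of -0.21. In each of the 3 the groups overlapped.

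Of 8 measured regulators of nuclear genes for mitochondria, 3 fell (37.5%, against 7.93% of all genes), 5 did not pass, and the median was -0.46. MYC gave 6.65, 6.66 and 6.09 with vemurafenib and 9.36, 9.30 and 8.83 with DMSO, a change of -2.69 ± 0.23 (limma adjusted p = 0.00129). Its groups lay furthest apart of the 8. GABPB1, a subunit of the ETS factor GABP, gave 7.08, 7.16 and 7.48 with vemurafenib and 8.43, 8.30 and 8.58 with DMSO, a change of -1.20 ± 0.18 (limma adjusted p = 0.00863). Both calls held in 6 of 6 fits without a sample. The DNA-binding subunit of the same factor, GABPA, had a change of 0.09 with overlapping groups, and YY1 had one of -0.50 that did not pass (limma adjusted p = 0.0741). PPRC1, a coactivator related to PGC-1α, gave 7.97, 8.13 and 8.49 with vemurafenib and 9.17, 9.22 and 9.67 with DMSO. It fell by 1.16 log2 units (limma adjusted p = 0.0160) and kept the call in 4 of 6 fits. GABPA and YY1 are named here for their motifs, after their values were seen. NRF1 and PPARGC1A, the gene of PGC-1α, were on this list but not among the genes tested, so neither has a value here.

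Over all 6 of these lists, 9 of 79 genes were called (11.4%, against 16% of all genes). With the sample number as a block 21 were called (26.6%, against 29.8%), and with the unnumbered and 1 samples averaged 0 were. The count was 2 without the unnumbered vemurafenib sample, 3 without vemurafenib sample 1 and 17 without vemurafenib sample 2, or 2.53%, 3.80% and 21.5%, against 2.72%, 3.51% and 23.8% of all genes. It was 4 without the unnumbered DMSO sample and 5 without either of the other DMSO samples, or 5.06% and 6.33%, against 3.65% of all genes without the unnumbered sample, 5.42% without sample 1 and 10.3% without sample 2.

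Other ribosome and mitochondrial genes were set beside the 76 by counts and medians, with no test of the difference between the lists. The median change of -0.11 over the mitochondrial ribosomal proteins stood beside 0.03 over 74 cytosolic ribosomal proteins, and the median absolute change of 0.24 beside 0.10. Of the cytosolic ones 2.70% were called, against 16% of all genes. These were 1 lower (RPL39L) and 1 higher (RPL10L), both variants made from second copies of a ribosomal protein gene. The subunits of the respiratory chain and ATP synthase, among which are the partners of the proteins this ribosome makes, had mostly changes of the other sign. Their median was 0.19 over 77 genes, with 64 changes above 0 and 13 below (16.9% below 0, against 45.9% of all genes). This list was picked by symbol and also holds ATP5IF1, an inhibitor of ATP synthase, and the pseudogenes ATP5F1EP2 and UQCRBP1. In limma 0 of the 77 passed, where 16% of all genes did. An unadjusted p under 0.05 in limma was reached by 10 of them and by 35.3% of all genes. Of the mitochondrial ribosomal proteins 36 were lower and 15 higher in all 3 pairs (47.4% and 19.7%). Of the respiratory chain subunits 1 was lower and 45 higher (1.30% and 58.4%), and of all genes 28.1% and 34.2%. The 28 genes for making cytosolic ribosomes had a median of -0.85, and 17 of them fell (60.7%, against 7.93% of all genes). The median of the 76 thus lay between those of the respiratory chain and of ribosome biogenesis, and was nearest to that of the cytosolic ribosomal proteins. Among genes as bright as the middle of the members, 3 of 38 members and 15.3% of 2007 genes were called.

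**Figure D5:**
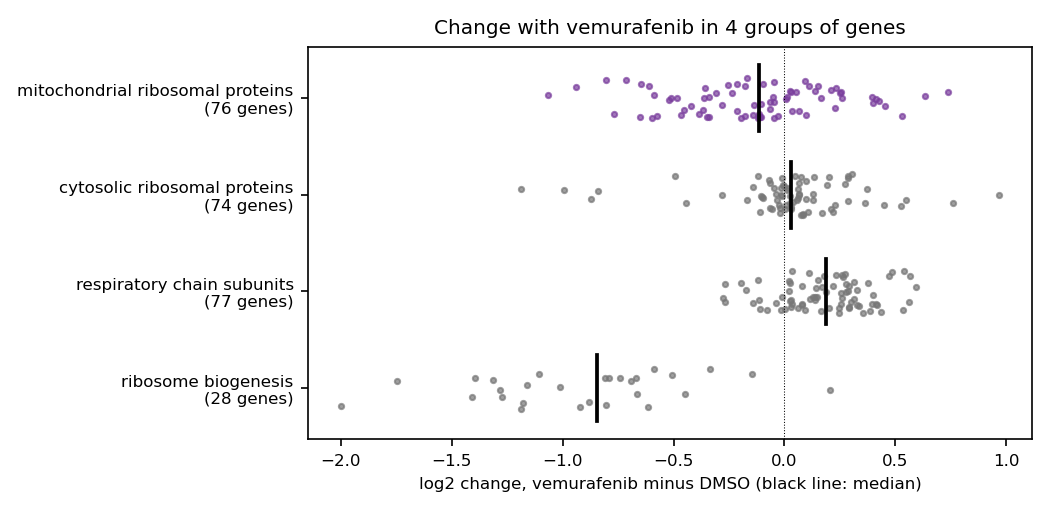
Log2 change, vemurafenib minus DMSO, of each gene (points) in 4 lists, with the median of each list as a black line. The medians are -0.11 for mitochondrial ribosomal proteins, 0.03 for cytosolic ribosomal proteins, 0.19 for respiratory chain subunits and -0.85 for ribosome biogenesis.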

How the data were processed

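Per the labels' protocols, RNA was extracted with Trizol, cleaned on columns, and biotin-labelled for Illumina arrays. The values the authors deposited are a linear intensity per probe and array, which by their distributions were neither scaled nor corrected for background, and a detection p-value, as the file headers name it. A deposited series table holds log2 values of the same arrays, which differ by at most 0.0480 from quantile-normalised log2 intensities without background correction. The sources used here do not say how detection was computed.

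With limma 3.58.1 in R 4.3.3, 4 probes with missing values were left out, background was corrected by normexp with its level inferred from detection p-values, and an offset of 16, quantile normalisation and log2 followed. A probe was kept (18747 were) if its detection p was below 0.01 on 3 or more arrays. Each gene was represented by its brightest kept probe, with symbols from GEO's platform annotation, and 76 of 76 member symbols matched a current gene table. The vemurafenib minus DMSO contrast was fitted with lmFit and eBayes over 6 samples without covariates, and p-values were adjusted over all kept probes by the Benjamini-Hochberg method, with a threshold of 0.05. The script was tested on simulated data. Deviations from the group means correlated between same-numbered samples of both groups at 0.19, 0.35 and 0.52, all above 0.1, so the numbers were taken as pairs in a blocked fit. Unnumbered and 1 samples also correlated across numbers (0.35 and 0.26), so these 2 numbers are not told apart, and their pairs rest on the sample numbers alone.

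Members, lists, groups, motifs and the rule for named genes were chosen with earlier results of these data known. The rule names passing members with groups that do not overlap, the 3 brightest, the 3 with the smallest change, MRPS30, the S18 relatives, genes whose probes disagree, and up to 4 passing genes per list (2 of the brightest where none passes). Alternatives concerned background, offset, scaling, input table, filter, moderation, probe choice, pairing and samples.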

Additional observations from a re-analysis of the deposited data

How the results depend on the processing

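The counts of called genes moved with the processing, and the median of the 76 members stayed below 0 under every alternative run. Of the members, 8 fell and 5 rose with the deposited log2 values, with no background correction or with an offset of 50. That was 17.1% called, against 17.4% to 17.9% of all genes. With trend and robust moderation 8 fell and 2 rose (13.2%, against 18.3% of all genes). With each array centred on its median, 2 fell and 1 rose, while all genes had 1019 higher and 658 lower calls against 906 and 890, and a median of 0.12 against 0.05. With no filter on dim probes, 2 fell and 0 rose (2.63%, against 4.69% of all genes). With the unnumbered and 1 samples averaged, 0 fell and 0 rose, and 26 of all genes passed. With the replicate block, 11 fell, 8 of them in the large subunit, and the other lists held 21 calls. Without both samples numbered 2, 14 fell, 11 of them in the large subunit, and 3 rose (22.4%, against 32.4% of all genes). In that fit 43 lay wholly below DMSO (56.6%, against 31.3% of all genes), and the other lists held 20 calls (25.3%). In the large subunit 4 fell with the deposited values, no background correction, an offset of 50 or the mean of all kept probes, 5 with trend and robust moderation, 1 with median centring or no filter, and 0 with averaged samples. In the small subunit 1 fell with median centring or no filter and 0 with averaged samples, which also left 0 calls in the other lists. The median was -0.15 with the mean of all kept probes, -0.14 with median centring and -0.14 without both samples numbered 2. With 1 sample left out, 0 to 13 members fell and 0 to 2 rose, the median ran from -0.19 to -0.064, 0 to 10 fell in the large and 0 to 3 in the small subunit, 22 to 39 lay wholly below DMSO, and the other lists held 2 to 17 calls. The ETS motif on the strand of the gene only was in 21.4% of windows. Over the 37 named genes and all alternatives, 526 values stayed on the same side of the threshold, 90 lost the call and 13 gained it. Some values that did not pass changed sign. The change of MRPL48, for example, ran from -0.25 to 0.22 with 1 sample left out. No result changed direction past the threshold, and the cause of the moves was not tested. Differences of signals near background are compressed without background correction, and with it they depend on the level taken off. The change of MRPS14, a dim probe, was 0.74 with correction and 0.35 in the deposited log2 values. This limits what such probes show.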
